A study of Mus musculus and Rattus norvegicus with 2 samples.

Results

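The miR-143 and miR-145 cluster was examined in small RNAs of 18 to 45 nt from purified cauda epididymal sperm, with 1 library from C57BL/6 mice of 2 months and 1 from young adult Sprague Dawley rats of 450 g. Both libraries were made from Trizol-extracted RNA of animals under normal growth, and the sources used here do not say how many animals entered each. Members were the sequences that the authors filed under mouse or rat miR-143 or miR-145, plus those filed under any other entry that share the first 18 nt of the most abundant mouse sequence of the same name. These came to 79 of 89179 distinct sequences and 3036 of 691381 reads in the mouse, and to 39 of 137388 sequences and 857 of 2102735 reads in the rat. By deposited name they were miR-143-3p, miR-145a-5p and miR-145a-3p, 3 of the 227 mature miRNA names with reads in the mouse, and miR-143-3p and miR-145-5p, 2 of 189 in the rat. The rat miR-145-5p is called miR-145a-5p below.

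Both miRNAs are cut from 1 primary transcript and are best known from smooth muscle, where serum response factor and its partner myocardin drive the cluster and where the 2 miRNAs favour the contractile state of the cell. Each precursor hairpin yields a 5p and a 3p strand. miR-143 usually acts through the 3p strand and miR-145 through the 5p strand, so these 2 strands are the expected guides. In the epididymis, smooth muscle surrounds the duct in which sperm mature, and sperm themselves carry small RNAs that can pass to the egg.

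In the mouse genome build GRCm38 the Mir143 hairpin lies on the minus strand of chromosome 18 at 61649196 to 61649258, and Mir145a at 61647825 to 61647894, 1301 nt away. The RefSeq model of Carmn, the long noncoding host RNA at 61645878 to 61665538, holds both hairpins, whereas the GENCODE M21 model at 61649625 to 61665537 ends 366 nt before Mir143. Mouse reads that matched the Mir143 hairpin exactly came to 2342, all in its 3p side. For Mir145a they came to 11. The 2 GENCODE transcripts of Carmn had 0 exact reads, and so did Mir145b, a separate gene at 69022199 to 69022273.

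miR-143-3p was one of the leading miRNAs in both libraries and was more abundant in the mouse. Its name held 2392 mouse reads and 813 rat reads, which placed it at rank 3 and rank 6 among mature miRNAs. As a share of mature miRNA reads the mouse value was 10.2% (exact 95% interval 9.79 to 10.6) and the rat value 3.13% (2.92 to 3.35). The mouse level was 3.25-fold that of the rat, a log2 ratio of 1.70 (1.58 to 1.82) on reads scaled to a mature miRNA total of 1000000 (RPM) with a pseudocount of 1 RPM. A single library stood for each species, so neither replicates nor a test could be had, and all intervals cover counting error at 95% only. The log2 values hold the pseudocount, whereas their intervals were computed without it. Scaled to all listed reads, the log2 ratio of miR-143-3p by name was 3.16 (3.05 to 3.28).

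Its partner miR-145a-5p was scarce in both. It had 13 named mouse reads (exact Poisson interval 6.92 to 22.2) and 15 rat reads (8.40 to 24.7), at ranks 56 and 57. The levels of 553 and 578 RPM gave a log2 ratio of -0.06 (-1.26 to 1.11), so no difference was detectable at this depth. Scaled to all listed reads the ratio was 1.28 (0.21 to 2.57). Between these scalings the median log2 ratio of the 43 miRNAs that had 10 or more reads in each library moved from -0.29 to 1.17. Of those 43 miRNAs, 16.3% had a log2 ratio above 1 toward the mouse by mature miRNA reads, and 58.1% by all listed reads. Of the 2 members, miR-143-3p passed that size under the first scaling and both passed it under the second, and miR-143-3p ranked 2 of 43 toward the mouse under the first.

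**Figure D1:**
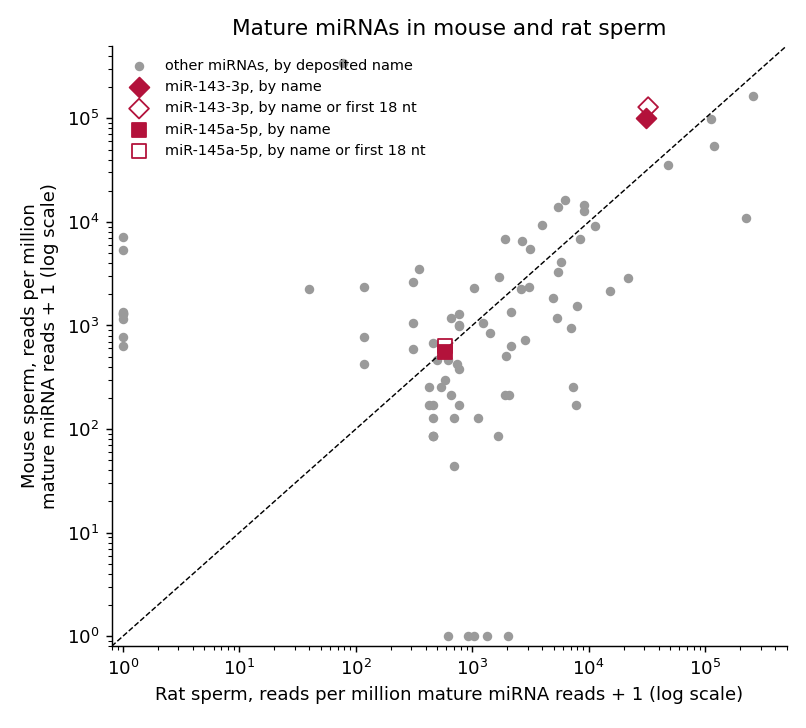
Level of each miRNA with at least 10 reads in either library, in rat (x axis) and mouse (y axis) sperm, as RPM plus 1 on log scales, with equality as the dashed line. miR-143-3p lies above the line with a mouse level of 101757 RPM and a rat level of 31328 RPM by name, while miR-145a-5p lies near it at 553 and 578 RPM.

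By name, miR-143-3p stood next to miR-10a-5p, with 3856 reads, and miR-191-5p, with 2321 reads, in the mouse order of miRNAs. The counting intervals of miR-143-3p (2297 to 2490) and miR-191-5p (2228 to 2417) overlapped. In the rat it lay, by name, between miR-22-3p, with 1239 reads, and miR-34b-3p, with 563, with no overlap of the intervals. Counted by start under any entry, rat miR-143-3p and miR-34b-3p were closer, with 820 and 722 reads. The neighbours of miR-145a-5p were not separable from it: in the mouse miR-15b-5p, miR-5126, miR-151-3p, miR-19b-3p, miR-30e-5p and miR-92a-3p had 11 to 15 reads. In the rat miR-130a-3p, miR-29c-3p, miR-30e-5p, miR-199a-3p, miR-28a-5p and miR-92a-3p had 13 to 17 reads. Of 24 miRNAs with at least 100 reads in 1 library and 10 in the other, miR-143-3p included, the 5 whose mouse to rat ratio was nearest to that of miR-143-3p were let-7f-5p at a log2 ratio of 1.83, miR-375-3p at 1.36, miR-127-3p at 1.35, miR-182-5p at 1.29 and miR-141-3p at 1.21. That likeness rests on 1 library per species.

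The deposited names hid part of the mouse miR-143-3p. No mouse sequence filed as miR-143-3p was longer than 21 nt, and no rat sequence so filed was longer than 22 nt. Mouse reads of 22 to 25 nt with the same start were filed under the Rfam family mir-143 instead, 627 reads of 16 sequences or 20.8% of all 3019 member reads (19.3 to 22.3). In the rat only 28 reads of 4 sequences, all of 23 nt, stood under a GenBank microRNA entry, 3.33% of 841 reads (2.22 to 4.78). The named and refiled reads together were set over the same total of named mature miRNA reads. This gave miR-143-3p 128430 RPM in the mouse and 32407 RPM in the rat. Refiled reads of any miRNA were not in that total. The log2 ratio then came to 1.99 (1.88 to 2.10), a 3.96-fold level in the mouse. For miR-145a-5p the same count added 2 mouse reads of 24 nt, for 15 reads in each library.

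miR-143-3p reads were shorter in the mouse. The most frequent mouse length was 20 nt, with 1493 of 3019 reads or 49.5% (47.7 to 51.3). The most frequent rat length was 21 nt, with 286 of 841 reads or 34.0% (30.8 to 37.3). The rat reads were spread more evenly, with 27.2% at 20 nt (24.2 to 30.4) and 29.8% at 22 nt (26.8 to 33.1). The mouse share at 22 nt was 19.5% (18.1 to 21.0). Over reads with the exact first 18 nt, mouse reads averaged 20.7 nt and rat reads 21.0 nt, 0.317 nt more. For 15 other miRNAs that had 100 or more such reads in each library the same shift ran from -0.718 to 0.437 nt with a median of -0.169, 3 were longer in the rat, and 1, miR-30a-5p, moved further that way than miR-143-3p. The mouse excess of miR-143-3p varied with length: the log2 ratio was 2.85 at 20 nt (2.65 to 3.05), 1.62 at 21 nt (1.42 to 1.82) and 1.37 at 22 nt (1.16 to 1.59). At 23 nt, with 36 mouse and 28 rat reads, it was 0.50 (-0.25 to 1.27). The ratio did not fall steadily with length: at 19 nt, with 78 and 44 reads, it was 0.97 (0.42 to 1.54), below that at 20, 21 and 22 nt, and at 18 nt, with 25 and 3 reads, it was 3.19 (1.49 to 5.57).

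**Figure D2:**
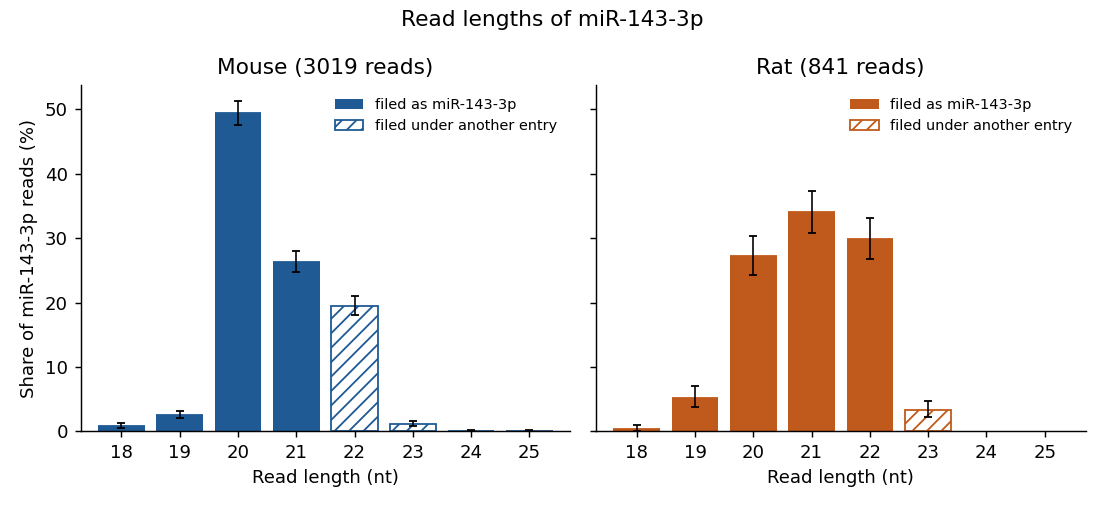
Share of miR-143-3p reads (y axis, percent) at each read length in nt (x axis) in the mouse (left, 3019 reads) and the rat (right, 841 reads), with exact 95% counting intervals as bars. Filled parts were filed as miR-143-3p and hatched parts under another entry: in the mouse every read of 22 nt and more is hatched, in the rat those of 23 nt.

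The same 6 forms led miR-143-3p in both libraries, in a different order. In the mouse the unaltered 20 nt form had 1432 reads and the unaltered 21 nt form 691. In the rat the 21 nt form led with 255 reads and the 20 nt form had 222. The next form in both was 22 nt long and carried the mismatch A22T, the reference having A and the read T at base 22 counted from the 5′ end, with 452 mouse and 186 rat reads. The unaltered 22 nt form was rarer, with 119 and 51 reads. The 21 nt form with C21T had 74 and 22 reads, and the unaltered 19 nt form 71 and 42.

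Ends with extra T, which stands for U in the RNA, were therefore a common feature of miR-143-3p. A tail was taken as the mismatched bases that reach the 3′ end of a read, among reads with the exact first 18 nt. Tails of T only were found on 568 of 2961 mouse reads, 19.2% (17.8 to 20.6), and on 234 of 820 rat reads, 28.5% (25.5 to 31.8). Of these, 537 and 212 had a single T, and 31 and 22 had TT. Tails of A only were found on 14 mouse and 2 rat reads, and tails of G only on 25 and 5. Listed reads with a tail of C only numbered 0 and 2.

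The T tails were most frequent after 1 end. Of the mouse reads whose last matching base was base 21, 480 of 1185 carried a T tail, 40.5% (37.7 to 43.4), and in the rat 208 of 470, 44.3% (39.7 to 48.9). After base 20 the shares were 5.25% of 1525 mouse reads (4.18 to 6.49) and 9.31% of 247 rat reads (5.99 to 13.6). After base 22 they were 4.80% of 125 and 5.56% of 54 reads. The mouse and rat intervals overlapped at each of these ends, although the rat share was the higher at all of them. Overlap does not show that the shares are equal. Reads ending at base 20 were more numerous than those ending at base 21 in the mouse and fewer in the rat. The part of these ends in the species difference was not tested. A T added after base 19 matches the reference, so such a tail could not be seen.

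**Figure D3:**
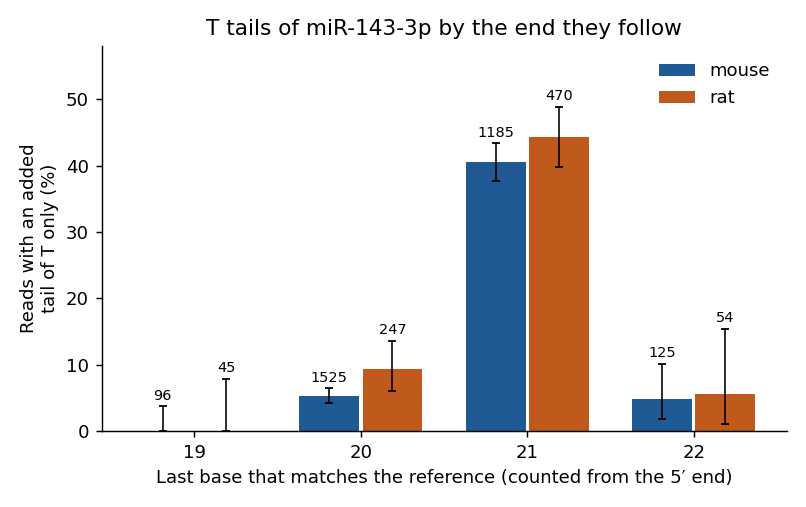
Share of miR-143-3p reads with an added tail of T only (y axis, percent) by the last base that matches the reference (x axis), in mouse and rat, with exact 95% counting intervals and the number of reads above each bar. The bars at base 21 reach 40.5% and 44.3%, and those at bases 20 and 22 stay between 4.80% and 9.31%.

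Few abundant miRNAs had as many T ends. Among 22 mouse miRNAs with at least 100 reads of 1 start, miR-143-3p was second, and the other 21 had a median of 0.806%. Among 26 in the rat it was first, with a median of 0.939% for the other 25. Its rat interval overlapped that of the next, miR-34b-3p at 24.2% (21.2 to 27.5). The rat minus mouse difference in T ends was 9.35 percentage points for miR-143-3p and -6.24 to 6.64 points for the 15 others measured in both. Such an end is read against the entry each sequence was filed under.

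**Figure D4:**
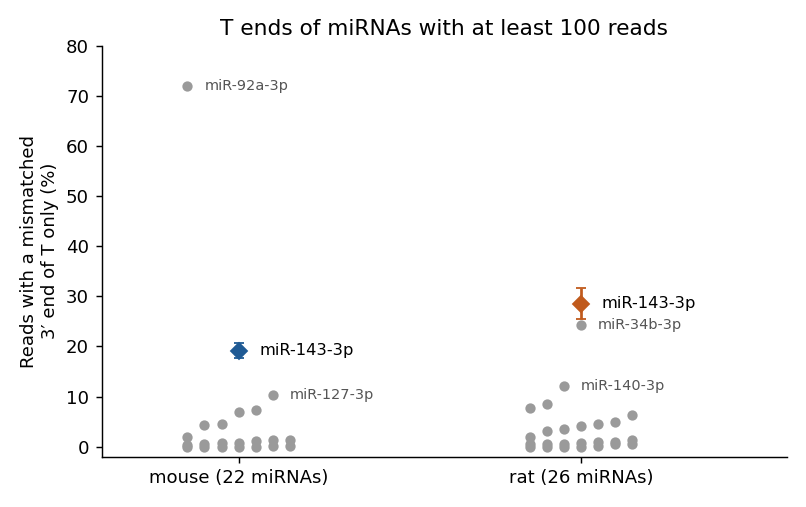
Share of reads with a mismatched 3′ end of T only (y axis, percent) for each miRNA with at least 100 reads of 1 start, in the mouse (22 miRNAs) and the rat (26 miRNAs). The coloured diamonds with exact 95% counting intervals mark miR-143-3p at 19.2% and 28.5%, and most grey points lie below 10%.

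Mismatches elsewhere in miR-143-3p were rare and alike in frequency. Among named reads, 92.8% of the mouse set (91.7 to 93.8) and 70.6% of the rat set (67.3 to 73.7) had no mismatch. With the refiled reads counted too, the shares were 77.5% (76.0 to 79.0) and 68.3% (65.0 to 71.4). Position by position, reads with 1 mismatch in the first 18 nt that stood under other entries were counted too and reads with a shifted start were left out. In bases 1 to 18 the mouse rate per base was then 0.128% and the rat rate 0.132%, and no single base exceeded 0.363%. Of the reads that reached base 22, 79.9% of 641 mouse reads and 80.6% of 279 rat reads were mismatched at it. In the seed, bases 2 to 8, which pairs with targets, 32 of 3019 mouse reads (1.06%, 0.73 to 1.49) and 11 of 841 rat reads (1.31%, 0.65 to 2.33) had a mismatch. The 5′ end varied little within the starts searched. With reads of 1 mismatch or a shifted start added to the members, 6 of 3038 mouse reads (0.197%) and 5 of 845 rat reads (0.592%) began at another base. Later starts were searched to 2 bases only. The mouse count leaves out 1 sequence of an earlier start with a date in place of the identifier. Its month read as the count gives 7 reads.

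The forms of miR-145a-5p could be read only roughly. The unaltered 23 nt form held 14 of 15 rat reads and 7 of 15 mouse reads, and all reads were of 21 to 24 nt. In the mouse 6 of the 15 reads carried 1 mismatch, and in the rat 0 of 15. Tails of T only were seen in 0 of 13 mouse and 0 of 15 rat reads, and the exact intervals reach 24.7% and 21.8%.

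Each hairpin was represented by its usual strand. For miR-143 the 3p strand had all 2392 named mouse reads and all 813 named rat reads, and miR-143-5p had 0 in both. A limit of 3 counts would be a 5p share of 0.125% among mouse reads and 0.369% among rat reads. The exact intervals of the 3p share reach down to 99.85% and 99.55%. Reads of miR-143-5p were counted by deposited name only. For miR-145a the 5p strand held 13 of 15 named mouse reads, 86.7% (59.5 to 98.3), with 2 reads of miR-145a-3p. In the rat it held 15 of 15 by name, and 1 read with the start of the 3p strand stood under a GenBank microRNA entry. A single strand was no rarity: of the hairpins with at least 100 reads, 15 of 18 in the mouse and 16 of 22 in the rat had named reads of 1 strand only.

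The partners of the cluster were far from equal in reads in either species. By name there were 184 miR-143-3p reads for each miR-145a-5p read of the mouse (exact binomial interval 107 to 346), and the rat ratio was 54.2 (32.7 to 97.3). With the refiled reads the ratios were 201 (122 to 360) and 56.1 (33.8 to 101). The mouse ratio was 3.39 times the rat ratio by name (conditional interval 1.50 to 7.78) and 3.59 times with the refiled reads (1.63 to 7.91). Over perfect matches alone the mouse ratio rose to 278 (141 to 644), on 8 reads of miR-145a-5p. The rat ratio fell to 38.3 (23.01 to 68.8), and the contrast between them was 7.25 times (2.87 to 19.8). That contrast sets unlike groups of reads side by side. The 22 nt form with A22T, 186 rat reads, was filed by name in the rat only, so only the rat lost it. Named miR-145a-5p kept 8 of 13 mouse reads and 15 of 15 rat reads. No scaling enters these values, since both partners were counted in the same library, and the 13 to 15 reads of miR-145a-5p set their counting precision. They compare reads of 2 different sequences, and how evenly the libraries captured both was not tested.

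Other miRNAs that share a primary transcript were compared by name, as reads of the most abundant partner per read of the least abundant, strands summed. Of 12 mouse clusters whose least abundant partner had at least 3 reads, miR-143/miR-145 was the most unequal at 159 (96.5 to 285), followed by miR-15b/miR-16 at 85.2 (51.5 to 153), and the median was 25.0. Of 15 rat clusters it was second at 54.2, after miR-99b/let-7e/miR-125a at 78.7 (26.6 to 384), and the median was 6.00. The intervals of miR-143/miR-145 overlapped those of the next clusters in both libraries. Clusters whose least abundant partner had under 3 reads, 2 mouse and 5 rat clusters, were left out of both orders, although a scarce partner is what makes a cluster unequal. Among them mouse miR-182/miR-183/miR-96 had 153 reads to 1, a ratio of 153 (27.1 to 6082), which cannot be told from 159 at this depth, and mouse miR-17/miR-92a had 11 reads to 0. Rat miR-200c/miR-141 had 104 reads to 1, a ratio of 104 (18.3 to 4147). Rat miR-182/miR-183/miR-96 had 69 reads to 0, miR-181a/miR-181b 50 to 0, miR-199a/miR-214 16 to 0 and miR-192/miR-194 12 to 0. The ranks of miR-143/miR-145 therefore hold only among the clusters kept. Some partners, such as miR-16, are also made from another gene. Names can also lose long reads, as they did for miR-143-3p. For both reasons these ratios are descriptions.

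**Figure D5:**
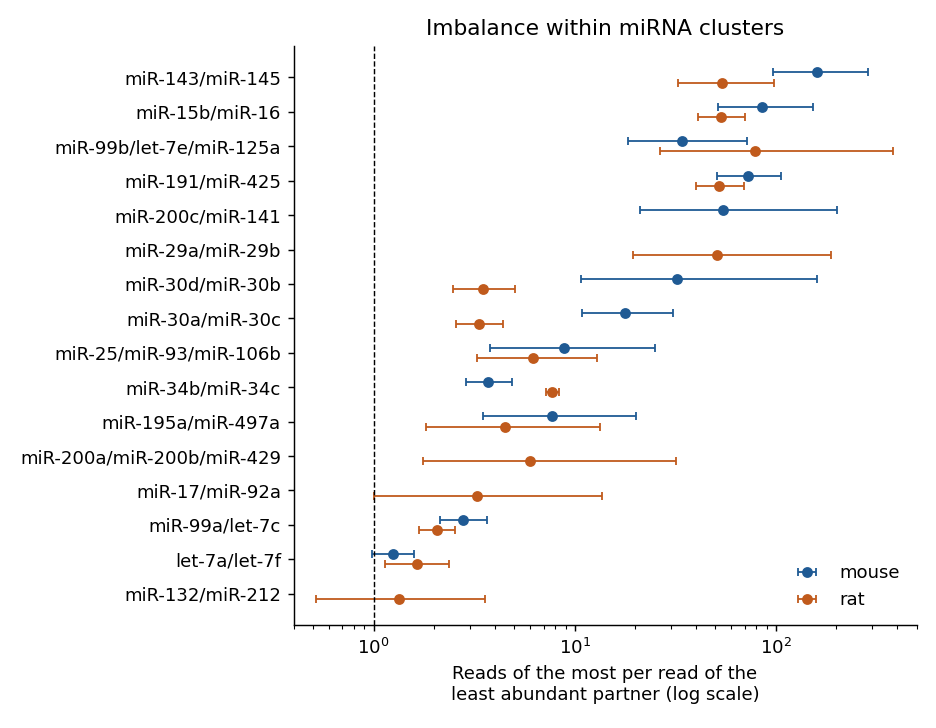
Reads of the most abundant partner per read of the least abundant partner (x axis, log scale) in each miRNA cluster (y axis) whose least abundant partner had at least 3 reads, by deposited name, in mouse and rat, with exact 95% counting intervals and equality as the dashed line. miR-143/miR-145 lies at a mouse value of 159 and a rat value of 54.2.

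Markers of other cells were measured beside miR-143-3p. Of 8 other miRNAs of stroma and muscle, 5 were detected in the mouse and 3 in the rat, with 15 and 18 reads in sum, 0.0638% and 0.0694% of mature miRNA reads. Among them miR-199a-3p had 7 mouse and 15 rat reads and miR-133a-3p, a muscle miRNA, 2 and 2, while miR-1a-3p and miR-206-3p, which define striated muscle, had 0 in both. The 8 epithelial markers summed to 2.62% of mature miRNA reads for the mouse and 1.14% for the rat, 8 and 7 of them detected by the listed names. The marker with 0 rat reads was miR-203-3p, and 2 rat reads named miR-203a-3p were not counted for it. Most epithelial reads were miR-375-3p, with 380 mouse and 163 rat reads, and miR-141-3p, with 218 and 104. Scarcer members of that list were mixed: miR-200c-3p had 4 and 1 and miR-429-3p 6 and 5. Toward the rat went miR-200a-3p with 3 and 18, miR-200b-3p with 1 and 2 and miR-205-5p with 2 and 3. The 9 markers of male germ cells summed to 1.95% and 26.1%, with 9 and 7 detected, and the 7 blood markers to 0.174% and 0.00771%, with 3 and 2 detected. In the germ cell list miR-34c-5p alone had 255 mouse and 5785 rat reads, and members of the list went the other way: miR-871-3p had 53 and 1, miR-470-5p 31 and 0, and miR-465a-5p 3 and 0. The part of these cells in the level of miR-143-3p was not tested, and in sperm preparations fewer cells of a type and less RNA per cell cannot be told apart. Sequence identifiers that the tables used here do not list came to 78279 for the mouse and 63001 for the rat, and any members among them were not analysed.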

How the data were processed

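The authors deposited raw read counts per distinct sequence, with strand, matched entry (miRBase, Rfam or GenBank) and up to 2 mismatches, per the file headers. Bowtie 0.12.7, mm9 and rn5 are named by the submitters' processing notes without their roles. The sources used here give no adapter trimming or database order. For the mouse, 2535 rows carry a date in place of the identifier and no count, and the main values omit them. The last mouse line, a total, was dropped. Mature miRNA reads came to 23507 (mouse) and 25951 (rat), and 17 rat names, 12 of them present, were set to mouse forms before matching. Mismatch positions, which the files count from 0, were counted from 1. Values were computed with Python 3.11.15, pandas 2.3.3 and scipy 1.17.1. Interval coverage was tested on simulated counts for the log2 ratio only, without a pseudocount and for miRNAs more abundant than miR-145a-5p. Tail detection was tested on simulated tails that all mismatched the reference, so tails that match it were not covered. PCR copies are not independent molecules. Named were the members, the 3 miRNAs above and below each in reads, the 5 nearest ratios, 25 listed clusters and 4 marker lists. Members and lists were chosen with earlier results of these data known. Mature sequences of the cluster are not reported here. Alternatives covered scaling, pseudocount, member definition, length, mismatches and minimum reads.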

Additional observations from a re-analysis of the deposited data

Results flagged for a closer look

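Reads outside the members lay close to miR-143-3p in both libraries. With 1 mismatch in the first 18 nt or a shifted start, 19 mouse reads and 4 rat reads stood under other entries, above the limit of 3 counts. The member counts, levels and lengths left them out. The mismatch rate per base used those of 1 mismatch, and the share of shifted starts and 1 alternative of the log2 ratios and imbalance used them all. In the mouse, 2 sequences of the Rfam family mir-143 had a date in place of the identifier and no count. Reading the month as the count gave 7 reads each and 14 together, and 1 of these sequences has the start of miR-143-3p.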

How the results depend on the processing

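Of 66 alternative values for 12 results, 47 stayed within the counting interval of the main value (or kept the same length), and 19 moved beyond it. The log2 ratio of miR-145a-5p, -0.06 with an interval across 0, changed sign in 6 of its 12 alternatives, and it was 0.22 scaled by the median ratio, 0.79 scaled to mature plus precursor reads, 0.14 by name or first 18 nt, 0.14 with reads of 1 mismatch or a shifted start added and 0.11 with damaged counts restored, so it has no settled direction. No alternative changed the sign for miR-143-3p. The log2 ratio of miR-143-3p, 1.70 by name, was 3.16 scaled to all listed reads, 1.99 scaled by the median ratio and 2.56 scaled to mature plus precursor reads. It was 2.00 by the first 18 nt, 1.99 by name or first 18 nt, 1.86 over perfect matches, 1.99 with reads of 1 mismatch or a shifted start added, and 1.96 with damaged counts restored. That of miR-145a-5p was 1.28 (0.21 to 2.57) scaled to all listed reads. The mouse share of 20 to 24 nt, 95.7%, was 96.7% by the first 18 nt, 96.6% by name or first 18 nt and 83.3% over distinct sequences, and the rat share, 94.2%, was 87.5% over distinct sequences, where the rat modal length was 22 nt. The share of mouse reads without mismatch, 92.8%, was 79.0% by the first 18 nt, 77.5% by name or first 18 nt, 94.1% over sequences with at least 2 reads and 11.1% over distinct sequences, and the rat share, 70.6%, was 18.8% over distinct sequences. The refiled mouse reads of 22 nt and more enter by the first 18 nt, and that construction moves the mismatch share. Named rows held no damaged count, so restoring gave no value for them. Added after seeing the data were the contrast of the imbalance over perfect matches, the restored counts, the extended starts and the union of name and start in lengths and mismatches. Over sequences with at least 2 reads the imbalance was 262 (mouse) and 56.7 (rat). The 13 and 15 reads of miR-145a-5p limit every value that rests on it.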

Other observations

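T ends were not restricted to miR-143-3p. In the rat, miR-34b-3p had a mismatched T end on 175 of 722 reads, 24.2%. In the mouse, miR-92a-3p had it on 100 of 139 reads, 71.9%, and 91.4% of its reads stood outside the mature miRNA names. Mouse miR-127-3p had it on 43 of 414 reads, 10.4%, and rat miR-140-3p on 14 of 115, 12.2%. Reads of a start under other entries than mature miRNA names had a median share of 11.7% over the other mouse miRNAs and 12.9% over those of the rat, against 21.2% and 3.41% for miR-143-3p.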
